A study of Homo sapiens with 6 samples.

Results

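RNA sequencing of U87-MG cells, an established human glioma cell line, was used to follow 51 genes of homologous recombination and of the wider DNA damage response and repair. The members were taken by gene symbol from a list of repair genes, and all 51 were found among the 61806 genes of the deposited table. Of these, 46 reached a mean of 0.5 FPKM (reads scaled to exonic length and to the library total) over the 6 libraries and were tested together with all other such genes, 15870 in total. The comparison asks whether transcripts of repair genes differ between U87-MG cells given a negative control (NC, genotype labelled wildtype, 3 libraries) and U87-MG cells labelled as GRIK1 knockdown and named for a GRIK1 siRNA (3 libraries). GRIK1 is a glutamate receptor subunit of the kainate type. Neither group carried another labelled allele or agent, and no dose or time after transfection was labelled. The labels do not say whether the siRNA numbers 1 to 3 are replicates or different siRNA sequences, nor whether libraries came from separate cultures, so p-values measure only the spread between these samples, which may be technical.

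Total counts per library ran from 11099909 to 14006968. GRIK1 was not lower in the libraries labelled GRIK1 siRNA. Its counts were 18, 9 and 8 in the NC libraries against 15, 20 and 20 in the siRNA-labelled ones, a difference of 0.12 on the log2(FPKM + 1) scale (exact two-sided permutation test, p = 0.4, where the smallest p that 3 against 3 libraries allow is 0.1). The directions given here are therefore those between libraries as labelled. NC library 3 stood apart from the other 5: the correlation of its log2 values with theirs was 0.955 to 0.971 across genes, against at least 0.986 among the other 5, and the common dispersion of the fit (its squared coefficient of variation between replicates) was 0.0391 with it and 0.00298 without it. The value without that library is therefore given beside each member whose call or sign it changes or whose fitted value it moves markedly. VIM, a mesenchymal filament of this line, lay between 825 and 1076 FPKM and CD44, a surface glycoprotein, between 50.8 and 71.6. The astrocyte filament GFAP did not exceed 0.28, and the glial markers S100B and SOX2 did not exceed 0.04 and 0.12. The glial marker OLIG2 was higher, between 0.41 and 0.83, and NES lay between 0.21 and 0.69. CDKN2A, which is deleted in this line, did not exceed 0.04. The leukocyte marker PTPRC did not exceed 0.03 FPKM, AIF1 and CD3E were at 0 in each library, and the sum of 3 endothelial markers did not exceed 0.08. The summed level of 4 neuron markers was 4.46 to 5.40 FPKM in NC and 5.30 to 5.55 in the siRNA-labelled libraries, and that of 4 epithelial markers was 5.38 to 6.39 and 4.58 to 5.81. These sums hide opposite directions. Groups did not overlap for SNAP25 and KRT8, lower at a log2 fold change of -0.44 and -0.57, and SYT1, higher at 0.92. Their adjusted p in edgeR was 0.0934, 0.0936 and 0.173. MAP2, EPCAM and KRT18 overlapped. Over all genes tested, 19% were lower and 19.4% higher without overlap. The sum of 4 immune markers, nearly all of it CD68, was 2.11 to 3.22 FPKM in NC and 3.47 to 4.07 in the siRNA-labelled libraries, and its part in the results was not tested.

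Cells answer DNA damage in steps. The kinases ATM and ATR sense breaks and single-stranded DNA and pass the signal to the checkpoint kinases CHEK2 and CHEK1. A double-strand break is then either joined directly by the Ku and DNA-PK pathway, or its ends are cut back by nucleases so that BRCA1, PALB2, BRCA2 and their partners can lead the strand into an intact sister chromatid, which is homologous recombination. The Fanconi proteins start the repair of crosslinks between the strands, and mismatch and excision repair remove errors and damaged bases. Homologous recombination needs a sister chromatid and works in S and G2 phase, and many of its genes are transcribed with the replication genes under E2F factors at the G1/S transition.

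The promoters of the members hold the E2F letters more often than promoters in general. Promoter sequences from RefSeq (GRCh38.p14, 250 bases before to 50 bases after each gene's start) were matched for 44 of the 51 genes. The letters searched on both strands were TTTCCCGC, TTTCGCGC, TTTGCCGC and TTTGGCGC, none of which contains CCAAT or TTTGAA, the other letters searched. Of the 44 genes, 9 held at least 1 match (20.5%), against 3.99% of 27305 genes in the table. This is not particular to the members. In the other lists read below, the share was 18.2% of 77 other repair genes, 13.3% of 15 p53 targets and 10.5% of 19 G2 and mitosis genes. It was 56.7% of 30 replication and G1/S genes. Counted by promoter, the shares were 15.2% of 66 and 3.31% of 35116. The 9 genes were EXO1, MSH6, FANCD2, TOPBP1, PMS2, XRCC2, FANCC, FANCA and XRCC6. The CCAAT box was held by 54.5% of the 44 genes and 39.7% of all genes, and TTTGAA, the core of the cell cycle element of mitotic genes, by 15.9% and 18.2%. The 5 windows printed here are the members with a match closest to the start, from 70 bases before to 30 bases after it, with the match in capitals. The levels of these genes were known when the windows were chosen, so they are examples only. Of the 9 genes with the letters, 5 were lower in each siRNA-labelled library than in any NC library, beside 19% of all genes tested. These were EXO1, XRCC2, MSH6, TOPBP1 and PMS2. FANCD2, which has the same letters as MSH6 within a few bases of the start, was not among them. In the order printed below, the windows lie at chr1:241848134-241848233 (plus strand), chr7:152676112-152676211 (minus strand), chr2:47783075-47783174 (plus strand), chr3:133661912-133662011 (minus strand) and chr3:10026367-10026466 (plus strand). Each is written 5′ to 3′ along its gene.
EXO1: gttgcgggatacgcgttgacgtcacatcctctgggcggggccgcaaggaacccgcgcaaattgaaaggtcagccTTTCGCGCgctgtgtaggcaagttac
XRCC2: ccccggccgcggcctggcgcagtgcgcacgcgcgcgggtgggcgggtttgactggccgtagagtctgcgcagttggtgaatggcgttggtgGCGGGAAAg
MSH6: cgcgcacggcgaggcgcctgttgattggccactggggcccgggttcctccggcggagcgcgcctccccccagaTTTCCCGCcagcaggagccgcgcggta
TOPBP1: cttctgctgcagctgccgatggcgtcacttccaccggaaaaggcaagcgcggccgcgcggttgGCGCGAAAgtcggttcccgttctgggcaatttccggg
FANCD2: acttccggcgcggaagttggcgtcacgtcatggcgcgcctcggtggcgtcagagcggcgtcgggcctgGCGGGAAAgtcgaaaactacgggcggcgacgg
The match reads in the direction of the gene in EXO1 and MSH6 and on the opposite strand in XRCC2, TOPBP1 and FANCD2. A match is a stretch of letters and not a measured site of binding. The 9 members with the letters had a median fitted log2 fold change of -0.27, with 4 lower and 0 higher at an unadjusted p under 0.05. The 30 tested members whose promoters were searched without a match had a median of -0.13, with 4 lower and 1 higher. Over all genes tested, 13.2% were lower and 12% higher at that p. WRN, the only member called below, had no promoter among those searched. Without NC library 3 the medians were -0.20 and -0.06. This difference was not tested.

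The genes differed widely in level. In the authors' FPKM, the Ku subunits were highest, XRCC6 (Ku70) at a mean of 57.6 and XRCC5 (Ku80) at 48.7 over the 6 libraries, followed by the excision nuclease subunit ERCC1 at 16.2 and the resection factor RBBP8 at 15.6. At the low end, RAD50, FANCB, FANCE, FANCM and BRIP1 had means between 0.178 and 0.458 FPKM and were under the limit for testing. FPKM depends on the exonic size by which a count is divided, and the size in the deposited table was more than 2 times the exon union of GENCODE 29 for 10 members, against 4.24% of the 58254 genes found in both. The extreme case was FANCL, the ubiquitin ligase of the Fanconi core complex, with 37977 bases in the table and 2412 in GENCODE 29. Its mean level was 1.56 FPKM and rank 34 of 51 with the former size, and 24.6 FPKM and rank 3 with the latter. The deposited counts were used with both sizes. Any reads outside the GENCODE 29 exons stay in these counts, so values with the smaller size may be too high. NBN, with a ratio of 3.15, moved from 3.86 to 12.2 FPKM and PARP1, with a ratio of 2.57, from 3.62 to 9.29. FANCB, FANCE and BRIP1 were untested by the size in the table. With the same counts and the other size they would have passed the limit of 0.5, at 0.833, 0.797 and 0.82 FPKM. RAD50 and FANCM would not. XRCC6 and XRCC5 remained in the first 2 ranks with either size. The fold changes of the main fit, made to counts, do not depend on this size, although the limit for testing does. The alternative fits to FPKM values, or with a trend on exonic size removed, do use it.

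**Figure D1:**
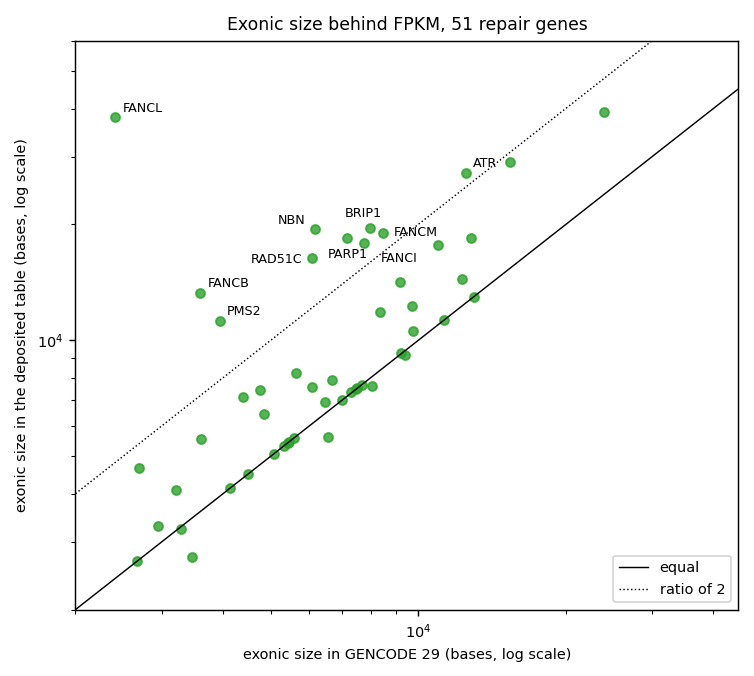
Exonic size in the deposited table (y axis, bases, log scale) against the exon union of GENCODE 29 (x axis, bases, log scale), with 1 point for each of the 51 repair genes, a solid line where both are equal and a dotted line where the deposited size is 2 times the other. The 10 named genes lie above the dotted line, with FANCL farthest from it at 37977 against 2412 bases.

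Exons of other genes also lie across some members, and the strand setting of the counting is not given in the sources used here. In 13 of the 51 genes more than 10% of the exonic bases were shared with another gene, and 22 shared none. Of RAD50, the coiled-coil partner of MRE11 and NBN, 79.7% was covered on the same strand by ENSG00000283782, which has a count of 0 in each library, so the level of RAD50, 0.452 FPKM, is uncertain. RAD54B shared 59.1% on the same strand with FSBP. XRCC3, a strand exchange factor, shared 76.7% with KLC1 on the opposite strand. The same kind of sharing was 28.7% in TP53BP1 (TUBGCP4), 28.6% in ERCC1 (CD3EAP), 25.1% in RAD54L (LRRC41), 23.6% in FANCA (ZNF276), 19.7% in FANCL (mainly VRK2), 16.4% in ATR (AC109992.1), 16.2% in MSH6 (FBXO11) and 11.3% in FANCF (GAS2), and reads of such pairs cannot be told apart without strand. The partner of ATR had a count of 0 in each library. XRCC1 shared 24.0% over both strands, mainly with L34079.3 on the opposite one. ATRIP shared 27.9% on the same strand with TREX1, whose count was 0 in each library, so the level of ATRIP is uncertain. PMS2 and CHEK2 have pseudogene copies in the genome that could have taken or lent reads.

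Few of the repair genes passed the test, as did few of all genes tested (3.09%). With 46 genes, 1 call does not set the members apart from all genes. In edgeR's quasi-likelihood test with Benjamini-Hochberg adjustment over all 15870 genes, 1 of 46 tested members, WRN, was higher in the siRNA-labelled libraries at an adjusted p under 0.05, where 1.61% of all genes tested were higher, and 0 were lower, where 1.48% of all genes tested were lower. At an unadjusted p under 0.05, 2 members were higher, where 12% of all genes tested were, and 9 were lower, where 13.2% were. DESeq2 called 2 members higher (ATR and WRN) and 3 lower (EXO1, BARD1 and MSH6), beside 6.03% and 5.72% of the 14330 genes to which it gave an adjusted p. Limma-trend on log2(FPKM + 1) called 1 higher (WRN) and 0 lower, beside 1.68% and 0.882% of all genes tested. Called with an absolute log2 fold change over 1 were 0 members, beside 138 higher and 86 lower of all 15870 genes tested. With 46 genes, 0 such calls do not set the members apart. EXO1 was the only member whose fitted change exceeded 1 in size. The fitted value was lower for 31 members and higher for 15, with a median of -0.16 beside -0.02 over all genes tested. In 38 of the 46 the change was under 0.5 in size. The quartiles of the members were -0.36 and 0.11, beside -0.32 and 0.35 over all genes tested. The 3 libraries of one group all lay above those of the other for 22 members. Of these, 6 were higher in the siRNA-labelled libraries, where 19.4% of all genes tested were, and 16 were lower, where 19% of all genes tested were. Summed over all 51 genes, the normalized CPM (the count scaled to the TMM-adjusted library total) was 1979, 2021 and 2240 in the NC libraries against 1984, 1985 and 2024 in the siRNA-labelled ones, and the groups overlapped.

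**Figure D2:**
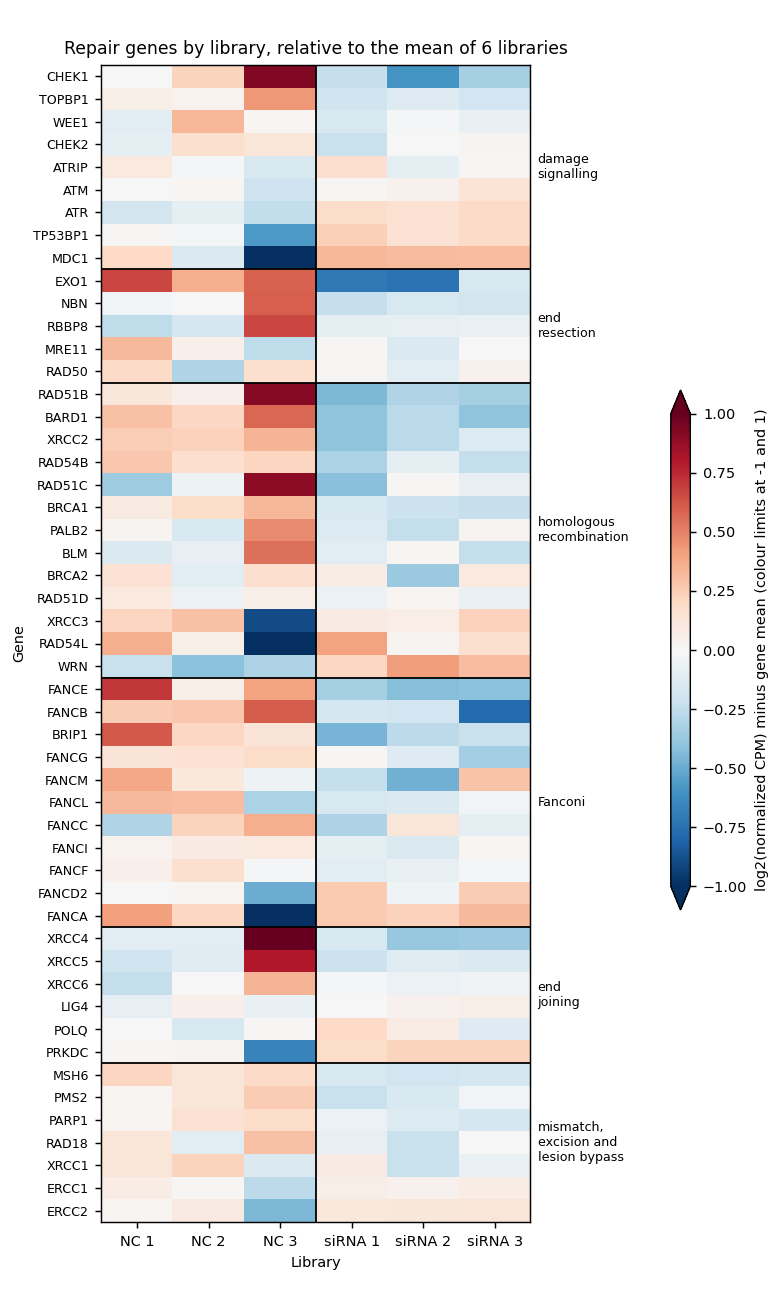
Colours show log2 normalized CPM of each of the 51 repair genes (rows, grouped by role) in each of the 6 libraries (columns) minus the gene's mean over the 6, with the scale limited at -1 and 1. NC library 3 holds the most extreme colours in many rows, as in XRCC5, XRCC4, FANCA and RAD54L, while EXO1, BARD1 and XRCC2 are lower in the 3 siRNA-labelled libraries and WRN higher.

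Of the alternatives run, leaving out NC library 3 gave the most calls. Without it, 15 of 46 members were called (32.6%), beside 35.2% of all genes tested. Called higher were 5 members, ATR, MDC1, TP53BP1, PRKDC and WRN, where 16.9% of all genes tested were higher. Called lower were 10 members, TOPBP1, CHEK1, NBN, EXO1, BRCA1, BARD1, XRCC2, FANCL, MSH6 and PARP1, where 18.3% of all genes tested were lower. The median of the members was then -0.08, and 9 members changed the sign of their fitted value. Leaving out any one of the other 5 libraries left 0 members and 0 of all genes called. NC library 3 was above the other 5 libraries in 21 tested members and below them in 14, together 76.1% of the members, and outside them in 71.4% of all genes tested.

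**Figure D3:**
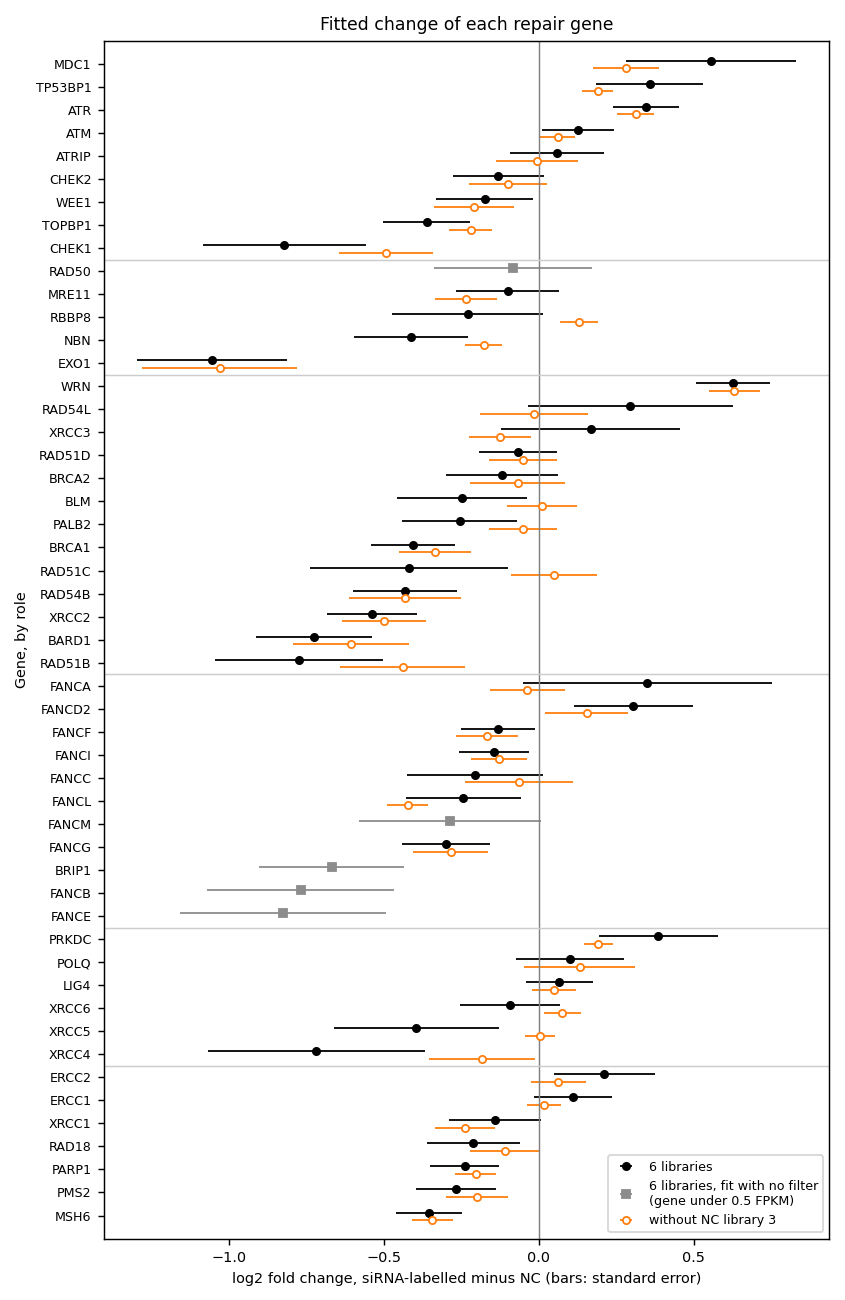
Fitted log2 fold change of each repair gene, siRNA-labelled minus NC (x axis), by role (y axis), with bars of 1 standard error. Black circles are the fit to 6 libraries, grey squares the 5 genes under 0.5 FPKM from a fit with no filter, and open orange circles the fit without NC library 3, whose bars are shorter for most genes. EXO1 is lowest at -1.05 and WRN highest at 0.63.

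Among the 9 genes of damage signalling, those that pass on the ATR signal were on different sides. ATR (chromosome 3, 142449007 to 142578733, minus strand, GRCh38), the kinase that senses single-stranded DNA, had 71.6, 76.1 and 68.3 normalized CPM in the NC libraries against 91.9, 90.1 and 92.7 in the siRNA-labelled ones. The siRNA-labelled libraries were all above the NC libraries, with a log2 fold change of 0.35 (SE 0.11, adjusted p = 0.112), and without NC library 3 of 0.31 (adjusted p = 0.000474). CHEK1 (chromosome 11, 125625163 to 125676255, plus strand), the kinase that ATR activates, had 10.2, 11.9 and 19.3 in NC and 8.64, 6.72 and 8.07 in the siRNA-labelled libraries. These groups did not overlap in the opposite direction, with NC library 3 farthest away, and the log2 fold change was -0.82 (SE 0.26, adjusted p = 0.121) with that library and -0.49 (adjusted p = 0.018) without it. TP53BP1, the chromatin reader that holds back end resection, had 147, 145 and 97.7 in NC and 172, 161 and 166 in the siRNA-labelled libraries. NC library 3 was lowest, and the log2 fold change moved from 0.36 (adjusted p = 0.239) to 0.19 (adjusted p = 0.00646) without it.

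TOPBP1 and MDC1 did not overlap between the groups either, and the other 4 members of this role did. In the role, 3 genes were higher and 2 lower without overlap, beside 19.4% and 19% of all genes tested. TOPBP1, the activator of ATR whose promoter is printed above, had a log2 fold change of -0.36 (adjusted p = 0.171), and -0.22 (adjusted p = 0.0208) without NC library 3. MDC1, the adaptor that binds phosphorylated H2AX, had 0.56 (SE 0.27, adjusted p = 0.248) and 0.28 (adjusted p = 0.0477) without that library, which, with the lowest level of the 6, lay below the 20.2 and 25.6 normalized CPM of the other NC libraries. ATM, CHEK2, the ATR partner ATRIP and WEE1, the kinase that holds CDK1 inactive, had fitted values between -0.17 and 0.13, and without NC library 3 ATM went from 0.13 to 0.06 and ATRIP from 0.06 to -0.01. The 9 genes summed to 395 to 455 normalized CPM in NC and 476 to 491 in the siRNA-labelled libraries, which did not overlap. TP53BP1, ATM and ATR make up most of this sum, while CHEK1 and TOPBP1 went the other way. No share over all genes was worked out for such sums.

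Among the 5 genes of end resection, EXO1 had the largest difference of all members. EXO1 (chromosome 1, 241847967 to 241895148, plus strand), the exonuclease that extends resected ends, had 5.52, 4.49 and 5.23 normalized CPM in the NC libraries against 2.12, 2.08 and 3.11 in the siRNA-labelled ones. Each siRNA-labelled library was below each NC library, and NC library 3 lay within the other NC values. The siRNA-labelled mean was 0.48 times the NC mean, with a log2 fold change of -1.05 (SE 0.24, adjusted p = 0.0622), which missed the threshold, and -1.03 (adjusted p = 0.00387) without NC library 3. NBN, the part of the MRE11 complex that recruits ATM, had 73.2, 74.8 and 113 in NC and 63.5, 66.9 and 65.7 in the siRNA-labelled libraries. The groups did not overlap, and the log2 fold change was -0.41 (adjusted p = 0.209) with NC library 3 and -0.18 (adjusted p = 0.0307) without it. RBBP8 (CtIP), which starts resection with MRE11, had 66.0, 69.9 and 125 in NC and 73.8, 74.3 and 75 in the siRNA-labelled libraries. Its fitted value of -0.23 (adjusted p = 0.575) rested on NC library 3 and was 0.13 (adjusted p = 0.108) without it. MRE11, the nuclease, overlapped with -0.10 (adjusted p = 0.725), and had -0.23 (adjusted p = 0.0811) without NC library 3. RAD50 was not tested and had -0.08 in the fit with no filter.

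The 13 genes of strand exchange and of the helicases held the one call. WRN, the RecQ helicase and exonuclease mutated in Werner syndrome, encoded on chromosome 8, had 42.0, 37.0 and 39.6 normalized CPM in the NC libraries against 56.7, 65.6 and 60.7 in the siRNA-labelled ones. The groups were well apart and NC library 3 lay within the other NC values. The siRNA-labelled mean, 61.0 ± 4.46 (SD, n = 3), was 1.54 times the NC mean, 39.5 ± 2.48 (SD, n = 3), with a log2 fold change of 0.63 (SE 0.12, adjusted p = 0.0427). Without NC library 3 it was 0.63 (adjusted p = 1.34e-05). Without any one of the other libraries the fitted value stayed between 0.57 and 0.68 but the call was lost, with an adjusted p of 0.0774 without NC library 1, 0.131 without NC library 2, and 0.179, 0.24 and 0.235 without siRNA-labelled library 1, 2 and 3. BLM, the other RecQ helicase of the list, had 16.4, 17.1 and 26.5 in NC and 15.3 to 18.4 in the siRNA-labelled libraries, and its fitted value changed from -0.25 to 0.01 without NC library 3.

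BRCA1 and its partner were on the other side of 0. BARD1 (chromosome 2, 214725646 to 214809683, minus strand), which forms a ubiquitin ligase with BRCA1, had 6.5, 6.11 and 7.88 in NC and 4.01, 4.4 and 4 in the siRNA-labelled libraries. The siRNA-labelled libraries were all lower, at 0.605 times the NC mean, with a log2 fold change of -0.72 (SE 0.19, adjusted p = 0.0782) and -0.61 (adjusted p = 0.0176) without NC library 3. BRCA1, shown with XRCC2 and XRCC5 after its values were seen, had 14.4, 15.4 and 17.1 in NC and 12.2, 11.7 and 11.6 in the siRNA-labelled libraries. These groups did not overlap either, with -0.40 (SE 0.14, adjusted p = 0.132) and -0.33 (adjusted p = 0.0345) without NC library 3. BRCA2, a mediator of strand exchange, and PALB2, which joins it to BRCA1, overlapped between the groups with -0.12 (adjusted p = 0.699) and -0.25 (adjusted p = 0.412). Without NC library 3, which was highest for both, these were -0.07 and -0.05.

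XRCC2, XRCC3, RAD51B, RAD51C and RAD51D, related factors that assist strand exchange, did not move as one. XRCC2 (chromosome 7, 152644776 to 152676193, minus strand) had 12.8, 12.7 and 13.7 normalized CPM in NC and 8.17, 8.96 and 9.85 in the siRNA-labelled libraries, which were all lower, with a log2 fold change of -0.54 (SE 0.15, adjusted p = 0.0891) and -0.50 (adjusted p = 0.00773) without NC library 3. RAD51B, with NC library 3 at 9.25 beside 5.12 and 5.35, had -0.77 (adjusted p = 0.141), and -0.44 (adjusted p = 0.102) without that library. RAD51C had 31.9 in NC library 3 beside 13.4 and 16.5, and its fitted value of -0.42 became 0.05 without it. XRCC3 was the reverse, with its lowest level in NC library 3, 0.451 times the mean of the other NC libraries, and went from 0.17 to -0.12. RAD51D was between 15.9 and 17.8 in the 6 libraries, with -0.07 (adjusted p = 0.76) that turned to 0.02 when libraries were scaled by their totals. Of the RAD54 translocases, RAD54B did not overlap between the groups and had -0.43 (adjusted p = 0.17), while RAD54L overlapped with 0.30, which became -0.01 without NC library 3. Over the 13 genes the summed level overlapped, at 196 to 230 normalized CPM in NC and 199 to 210 in the siRNA-labelled libraries.

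**Figure D4:**
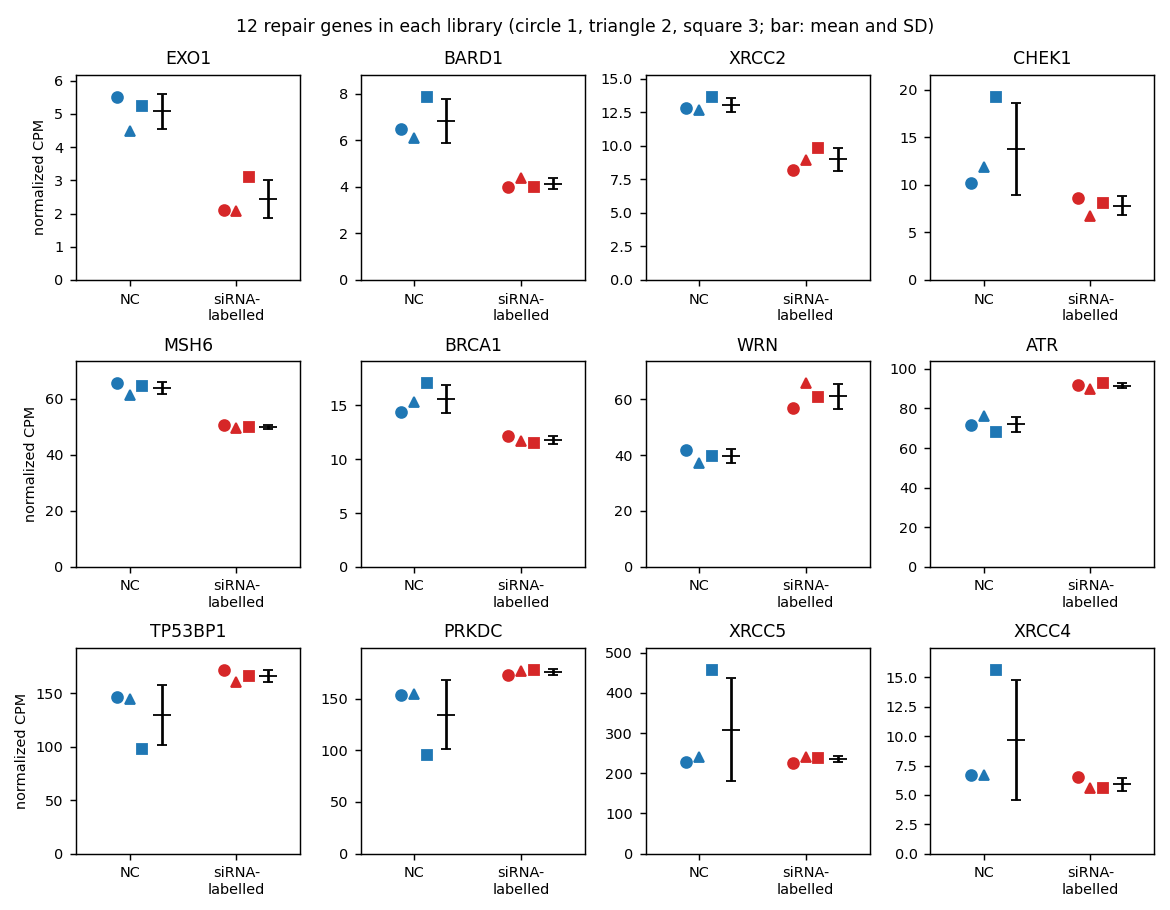
Normalized CPM of 12 repair genes (y axis, each panel from 0) in the NC libraries (blue) and the libraries labelled GRIK1 siRNA (red), with circles, triangles and squares for libraries 1, 2 and 3 and black bars for the mean and SD of 3. In EXO1, BARD1, XRCC2, MSH6 and BRCA1 the red points all lie below the blue, in WRN and ATR above, and in XRCC5 and XRCC4 the blue square alone, at 456 and 15.6, sets the NC mean apart.

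Of the 11 Fanconi genes, 7 were tested and 0 passed edgeR's test with 6 libraries, beside 1.61% of all genes tested higher and 1.48% lower. At an unadjusted p under 0.05 there were 0 of the 7, beside 12% higher and 13.2% lower. DESeq2 and limma-trend called 0 as well. With 7 genes, 0 calls do not set this role apart from all genes. FANCG, of the core complex, had 17.6, 17.8 and 18.2 in NC and 16.2, 14.7 and 12.7 in the siRNA-labelled libraries. Each siRNA-labelled library was lower, with a log2 fold change of -0.30 (SE 0.14, adjusted p = 0.231). FANCD2, which the core complex marks with ubiquitin, had 11.4, 11.5 and 8.04 in NC and 13.6, 11 and 13.6 in the siRNA-labelled libraries, which overlapped, with 0.31 (adjusted p = 0.345), and 0.15 without NC library 3. FANCF, an adaptor of the core complex and the highest of the role in FPKM (6.61), had 22.5, 24.3 and 21.6 in NC and 20.2, 20.7 and 21.6 in the siRNA-labelled libraries. The groups met at 21.6 without crossing, with -0.13 (adjusted p = 0.511).

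FANCL and FANCA depended on NC library 3 in opposite ways. FANCL had 52.4 to 57.5 normalized CPM in the siRNA-labelled libraries, below the 73.2 of NC library 1 and the 72.5 of NC library 2, while NC library 3 was lowest of all at 47.1. Its log2 fold change was -0.24 (adjusted p = 0.429) with that library and -0.42 (adjusted p = 8.16e-05) without it. FANCA, also of the core complex, had 14.4, 12.6 and 4.02 in NC and 12.7 to 13.6 in the siRNA-labelled libraries, and went from 0.35 to -0.04. FANCI, the partner of FANCD2, had -0.14 with groups that did not overlap, and FANCC overlapped with -0.21, which became -0.06 without NC library 3. Of the 4 untested genes, FANCB, FANCE and the helicase BRIP1 were lower in each siRNA-labelled library, with -0.77, -0.82 and -0.67 in the fit with no filter (adjusted p = 0.167, 0.181 and 0.115), and the translocase FANCM overlapped with -0.29 (adjusted p = 0.62). Summed over the 11 genes, NC libraries 1 and 2 had 199.9 and 199.3 normalized CPM, while NC library 3, at 162.0, lay just below the 162.4 to 172.3 of the siRNA-labelled libraries.

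In end joining, 0 of 6 genes passed the test of edgeR with 6 libraries, beside 1.61% of all genes tested higher and 1.48% lower. At an unadjusted p under 0.05 there were 0, beside 12% higher and 13.2% lower, and DESeq2 and limma-trend called 0 as well. With 6 genes, 0 calls do not set this role apart from all genes. XRCC5, which with XRCC6 forms the ring that binds broken ends, had 228, 240 and 456 normalized CPM in NC and 226, 240 and 237 in the siRNA-labelled libraries. NC library 3 alone stood out, at 1.95 times the mean of the other NC libraries. The log2 fold change of XRCC5 was -0.39 (SE 0.27, adjusted p = 0.378) with it and 0.00 (SE 0.05, adjusted p = 0.956) without it. XRCC6 had 159, 188 and 237 in NC and 186, 179 and 183 in the siRNA-labelled libraries, with -0.09 (adjusted p = 0.742), 0.01 when libraries were scaled by their totals and 0.08 without NC library 3. XRCC4, the scaffold of the ligase LIG4, had 6.68, 6.73 and 15.6 in NC and 6.52, 5.56 and 5.63 in the siRNA-labelled libraries. The siRNA-labelled libraries were all lower, but the fitted -0.72 (SE 0.35, adjusted p = 0.242) became -0.18 (adjusted p = 0.446) without NC library 3.

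PRKDC, the catalytic subunit of DNA-PK, had 153, 154 and 95.6 in NC and 172, 177 and 177 in the siRNA-labelled libraries. It was higher in each siRNA-labelled library, with 0.39 (SE 0.19, adjusted p = 0.252), and 0.19 (SE 0.05, adjusted p = 0.00431) without NC library 3. LIG4 lay between 49.4 and 54.4 in the 6 libraries, with a log2 fold change of 0.07 (SE 0.11). POLQ, the polymerase of microhomology-mediated joining, lay between 5.57 and 7.15, with 0.10 (SE 0.17).

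Of the 7 genes of mismatch, excision and lesion bypass repair, MSH6 and PARP1 were lower in each siRNA-labelled library than in any NC library, and among the edgeR fits run were called only without NC library 3 (DESeq2 also called MSH6). MSH6 (chromosome 2, 47695530 to 47810063, plus strand, by the span in the deposited table), which recognises single mismatches, had 65.5, 61.5 and 64.7 normalized CPM in NC and 50.7, 49.4 and 49.9 in the siRNA-labelled libraries. Each siRNA-labelled library was lower, at 0.783 times the NC mean, with a log2 fold change of -0.35 (SE 0.11, adjusted p = 0.106) and -0.34 (adjusted p = 0.000659) without NC library 3. PARP1, the sensor of single-strand breaks, had 67.6, 74.3 and 75.9 in NC and 64.3, 60.8 and 59.6 in the siRNA-labelled libraries. These did not overlap, with -0.24 (adjusted p = 0.226) and -0.20 (adjusted p = 0.0243) without NC library 3. ERCC1 had 94.8, 91.1 and 75.2 in NC and 94.1, 92.9 and 94.9 in the siRNA-labelled libraries, which overlapped, with 0.11 (adjusted p = 0.602), and 0.02 without NC library 3. PMS2, the mismatch endonuclease subunit, had -0.27 (adjusted p = 0.237) with groups that did not overlap. The helicase ERCC2 had 0.21, the scaffold XRCC1 -0.14 and the ubiquitin ligase RAD18 -0.21, each with an adjusted p of at least 0.401, and without NC library 3 they had 0.06, -0.24 and -0.11. In this role 3 genes were lower and 1 higher without overlap, beside 19% and 19.4% of all genes tested. Summed over the 7 genes, the NC libraries had 319 to 339 normalized CPM and the siRNA-labelled ones 300.1 to 313.2, which did not overlap. No share over all genes was worked out for this sum.

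Of 88 further repair genes, 88 were tested, and edgeR called 1 higher and 2 lower, beside 1.61% and 1.48% of all genes tested. Their median log2 fold change was -0.08, and 0.00 without NC library 3. REV3L, the catalytic subunit of the bypass polymerase zeta, had 38.7, 41.2 and 41.0 normalized CPM in NC and 71.1, 70.2 and 73.9 in the siRNA-labelled libraries, far from overlap, with 0.83 (SE 0.11, adjusted p = 0.024). RMI2, which works with BLM, had 7.48, 10.8 and 9.89 in NC and 3.38, 4.09 and 3.11 in the siRNA-labelled libraries, with -1.41 (SE 0.21, adjusted p = 0.0304). CLSPN, the adaptor through which ATR activates CHEK1, had 7.39, 7.54 and 8.45 in NC and 3.46, 3.47 and 3.78 in the siRNA-labelled libraries, with -1.12 (SE 0.17, adjusted p = 0.0304). TDG, a thymine glycosylase, and the nuclease DNA2 followed with 0.66 and 0.86 (adjusted p = 0.0626 and 0.067), and TIMELESS, a fork protection factor, with -0.61 (adjusted p = 0.0629). Without NC library 3, edgeR called 22 of the 88 higher and 19 lower, together 46.6% of them, beside 35.2% of all genes tested. Leaving out any one of the other libraries left 0 of the 88 called.

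Most replication and G1/S genes had a lower fitted value, and 8 of them passed the test as lower. Of 34 tested genes of this list, 33 were lower by the fit, with a median of -0.65, and edgeR called 8 lower and 0 higher, beside 1.48% and 1.61% of all genes tested. At an unadjusted p under 0.05, 22 were lower and 0 higher, beside 13.2% and 12%, and DESeq2 called 15 lower, beside 5.72%, and limma-trend 3, beside 0.882%. Groups that did not overlap were lower in the siRNA-labelled libraries for 24 of the 34, beside 19% of all genes tested, and higher for 1, POLA1, a subunit of the priming polymerase, at 0.25 (named after its value was seen). E2F1, the transcription factor of the G1/S transition, had 22.3, 23.3 and 19.9 normalized CPM in NC and 8.80, 6.33 and 9.04 in the siRNA-labelled libraries, with -1.44 (SE 0.18, adjusted p = 0.0236). CDC6, which loads the replicative helicase, had -1.05 (adjusted p = 0.0306) and RRM2, a subunit of ribonucleotide reductase, -0.88 (adjusted p = 0.0303). The helicase subunits MCM5, MCM3 and MCM4 had -0.88, -0.72 and -0.68 (adjusted p = 0.031, 0.0366 and 0.0369). Leaving out any library but NC library 3 left 0 of the 34 called, and leaving out NC library 3 left 24 called lower, beside 18.3% of all genes tested. The E2F letters were held by 17 of the 30 genes of this list with a promoter (56.7%). In bulk RNA, fewer cells in a phase of the cell cycle and less of a transcript per cell cannot be told apart, and the part of the cell cycle in the values of EXO1, BARD1, XRCC2, CHEK1 and MSH6 was not tested.

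**Figure D5:**
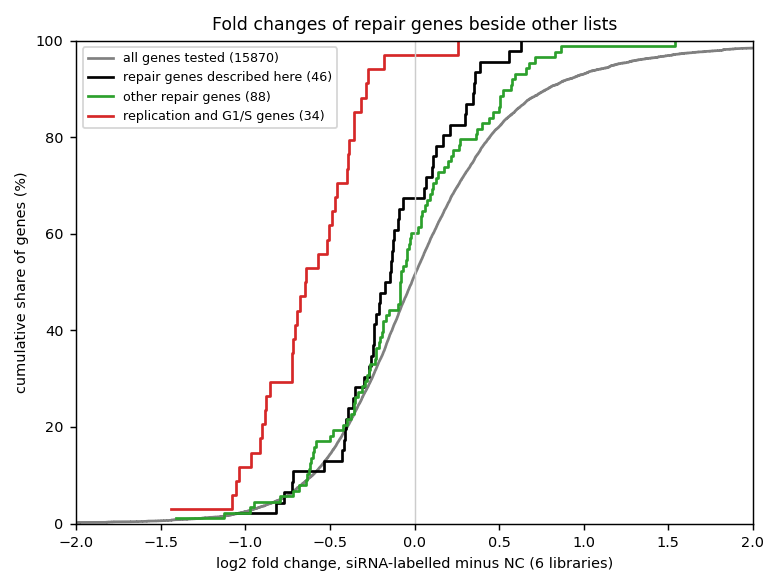
Cumulative share of genes (y axis, percent) at or below each log2 fold change, siRNA-labelled minus NC (x axis), for all 15870 genes tested (grey), the 46 tested repair genes described here (black), 88 other repair genes (green) and 34 replication and G1/S genes (red). The black and green lines run near the grey one, with medians of -0.16, -0.08 and -0.02, and the red line lies to their left, with a median of -0.65.

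Genes of G2 phase and mitosis and targets of p53 were read beside these. Of 22 tested G2 and mitosis genes, the median was -0.18, and -0.04 without NC library 3, and edgeR called 1, the kinesin KIF20A, higher at 1.03 (SE 0.18, adjusted p = 0.0378). CDK1, the kinase of mitotic entry, had 32.3, 34.9 and 63.8 normalized CPM in NC and 23.7, 27.9 and 22.8 in the siRNA-labelled libraries, with -0.82 (adjusted p = 0.124), and -0.44 (adjusted p = 0.00255) without NC library 3. Of 18 p53 targets, the median was 0.11, and 0.25 without NC library 3. Of these, edgeR called 0, with 6 higher and 1 lower at an unadjusted p under 0.05, beside 12% and 13.2% of all genes tested, while DESeq2 called 6 higher, beside 6.03%, and limma-trend 2, beside 1.68%. AEN, a nuclease induced by p53, had 0.53 (adjusted p = 0.0503), MDM2, the ligase that degrades p53, 0.49 (adjusted p = 0.055), and CDKN1A (p21), the inhibitor of cyclin-dependent kinases, 0.40 (adjusted p = 0.0973). Each of these 3 was higher in each siRNA-labelled library than in any NC library, and other higher targets had a smaller p than CDKN1A. Of the 18, 8 were higher and 3 lower without overlap, beside 19.4% and 19% of all genes tested. The 3 lower ones, named after their values were seen, were ZMAT3, PHLDA3 and FDXR. They had -0.59, -0.27 and -0.23 (adjusted p = 0.177, 0.232 and 0.312). Without NC library 3, edgeR called 7 p53 targets higher and 4 lower, beside 16.9% and 18.3% of all genes tested.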

How the data were processed

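RNA was sequenced from 6 U87-MG libraries, 3 NC and 3 labelled GRIK1 siRNA, grouped by their titles. The authors deposited whole-number counts per gene, without normalization, and FPKM values, which were the count scaled to the library total and to the exonic size in the table. This formula was checked and gave 100% of the deposited FPKM values within 0.005. The submitters' processing notes name cutadapt 1.9.1, HISAT2, HTSeq and GRCh38, and the strand setting is not given in the sources used here. Columns left unassigned: 0. Rows that name no gene: 0.

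Testing was limited to genes whose mean reached 0.5 FPKM and used edgeR 4.0.16 (R 4.3.3; TMM scaling, quasi-likelihood test, no block, Benjamini-Hochberg adjustment). The standard error is the log2 fold change divided by the square root of its F. Normalized CPM is the count over the TMM-scaled library size. Members and lists were chosen with earlier results of these data known. Values in each library are given for members called and, in each role, for the 2 with the smallest p and the one with the highest FPKM; at most 6 genes of another list are named. BRCA1, XRCC2, XRCC5 and members that depend on NC library 3 were added after their values were seen. Exon unions and overlaps came from GENCODE 29 and promoters from RefSeq. Alternatives were other scalings, filters, DESeq2 1.42.0, limma-trend 3.58.1 on log2(FPKM + 1) or log2(FPKM + 0.1), a replicate block, a fit with an exonic size trend removed, and leaving out each library. The trend was that of log2 CPM minus the gene's mean on the deposited exonic size, removed in each library (lowess, span 0.3). Counts in 1 library ran from 27 to 5672 over the tested members, and intervals cover the spread between libraries only.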

Additional observations from a re-analysis of the deposited data

How the results depend on the processing

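The number of members called was 3 with no filter on low values (CHEK1 and EXO1 lower, WRN higher), 5 with DESeq2 (EXO1, BARD1 and MSH6 lower, ATR and WRN higher), and 0 with limma-trend on log2(FPKM + 0.1), with the exonic size trend removed and with a replicate block, and it ran from 0 to 15 when a library was left out. Over all genes, DESeq2 called 6.03% higher and 5.72% lower, and the fit without NC library 3 called 35.2%. Limma-trend on log2(FPKM + 0.1) called 175 higher and 105 lower of 15870. No share over all genes is given for the fits with no filter, the size trend removed or the block. Calls in those fits therefore do not set any list apart. The member median was -0.075 with library totals, -0.24 with no filter, -0.043 and -0.065 with limma-trend at pseudocounts of 1 and 0.1, and -0.24 with the size trend removed, with -0.20 to -0.083 when a library was left out. The median of all genes was then 0.07, 0.07, 0.06 and 0.09 in the first 4 of these. Other repair genes called were 11 with no filter, 15 with DESeq2, 0 with the replicate block and 0 to 41 with a library left out. Replication and G1/S genes called were 13, 15 and 0 in the same order, 3 with limma-trend at either pseudocount, and 0 to 24 with a library left out. The labels do not say whether equal numbers pair libraries. The correlation of deviations was -0.027, 0.025 and -0.021 for the same number, and -0.034 to 0.034 for different numbers. With 3 libraries per group and NC library 3 far from the others, this check cannot exclude pairing. Whether the replicate block is the better model is therefore not known. The call of WRN was lost in 8 of 16 alternatives (adjusted p = 0.134 with the block). Of 727 values over members and alternatives, 678 kept their sign and their side of the threshold, 20 became calls (14 of them without NC library 3) and 21, over 13 members, changed sign, with 0 of these called in either fit. The sign changed in ATM (-0.18) and XRCC6 (0.0081) with the size trend removed, in RAD51D (0.022) and XRCC6 (0.0078) with library totals, in RAD51D (0.011 and 0.018) and XRCC6 (0.014 and 0.015) with limma-trend at pseudocounts of 1 and 0.1, and in MRE11 (0.0028) at 0.1. With a library left out, the lowest and highest values were -0.012 and 0.12 for ATRIP, -0.23 and 0.055 for MRE11, -0.39 and 0.13 for RBBP8, -0.20 and 0.019 for BRCA2, -0.65 and 0.048 for RAD51C, -0.12 and 0.37 for XRCC3, -0.014 and 0.59 for RAD54L, -0.37 and 0.011 for BLM, -0.038 and 0.67 for FANCA, -0.57 and 0.0044 for XRCC5, and -0.22 and 0.076 for XRCC6. The cause was not tested.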
